A study of Mus musculus with 6 samples.

Results

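The genes described here are 9 forkhead transcription factors, taken by symbol from 33460 genes measured in brain vascular libraries of the mouse. They were divided by the cells they are known from. *Foxs1*, *Foxd1*, *Foxc2*, *Foxc1* and *Foxf2* are factors of mesenchymal or neural crest derivatives, and *Foxq1*, *Foxo1*, *Foxp1* and *Foxp2* are endothelial or broadly expressed factors. All 9 passed the filter on low values, as 9 of the 14801 genes tested.

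RNA-seq was carried out on 3 libraries of mural cells, the pericytes and smooth muscle cells of the vessel wall, and on 3 libraries of microvascular fragments. All mice carried both *Pdgfrb-eGFP* and *NG2-DsRed* and were at postnatal day 6 (P6). Mural cells were sorted by FACS as cells positive for both reporters, so the sort follows the activity of the *Pdgfrb* and NG2 promoters, and smooth muscle cells with little *NG2-DsRed* may be missing from it. The fragments were taken with magnetic beads against CD31 after collagenase digestion and contain endothelial cells (EC) together with their mural cells. The fragments are therefore a mixture that holds the compared cell type, not a mural-free control, and a ratio between the groups is not a ratio between mural cells and EC. The study took both preparations from opposite sides of the same brains, but the labels do not say which numbers belong to one brain. Values are FPKM, sequenced fragments scaled to transcript length and library size.

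The mural libraries were shallower, with an estimated 1040000 to 2370000 sequenced fragments on protein-coding genes, against 5430000 to 5950000 in the microvascular libraries. All 11 listed mural markers were enriched in the sorted cells, with ratios of mean FPKM from 6.47 for *Cspg4* to 12.5 for *Acta2*. *Pdgfrb* and *Cspg4*, which encodes NG2, are the genes of the sort reporters. The study reported most of the other markers as enriched in these same libraries, so the list is no independent check of purity. EC markers were still abundant in the sorted libraries: 13 of them summed to 1717 to 2235 FPKM there and to 2376 to 2759 FPKM in the fragments, with a median ratio of 0.652. All 8 microglia markers were lower in the sorted cells, with a median ratio of 0.0836. The third mural library held more of the astrocyte markers, 612 summed FPKM against 163 and 141 in the others. In bulk libraries such as these, fewer cells of a type and less RNA per cell cannot be told apart.

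Forkhead proteins bind DNA through a winged helix domain, and most recognise a core with the letters TAAACA. *Foxc1* and *Foxc2* act in mesenchyme of the head, the meninges and the vessel wall, *Foxf2* in brain pericytes and the blood-brain barrier, and *Foxd1* in stromal progenitors that give rise to pericytes in the kidney. FOXO proteins work downstream of insulin and growth factor signalling: AKT phosphorylates them and keeps them out of the nucleus. FOXP proteins act mostly as repressors together with co-repressor complexes.

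Promoter sequences from RefSeq (GRCm38.p6) were at hand for 5 of the 9 genes, *Foxc1*, *Foxd1*, *Foxf2*, *Foxo1* and *Foxp1*, the last with several starts. The 250 bases before the start are shown for the 4 of them with 1 start, the mesenchymal *Foxc1*, *Foxd1* and *Foxf2* and, from the endothelial and broad genes, *Foxo1*. Capitals mark the forkhead core (TAAACA), the GC box (GGGCGG) and the CCAAT box (CCAAT), searched on both strands. The windows lie at chr13:31806396-31806645 for *Foxc1*, chr13:98353995-98354244 for *Foxd1*, chr13:31625566-31625815 for *Foxf2* and chr3:52268087-52268336 for *Foxo1*, all on the plus strand. They read 5′ to 3′ as follows.
Foxc1: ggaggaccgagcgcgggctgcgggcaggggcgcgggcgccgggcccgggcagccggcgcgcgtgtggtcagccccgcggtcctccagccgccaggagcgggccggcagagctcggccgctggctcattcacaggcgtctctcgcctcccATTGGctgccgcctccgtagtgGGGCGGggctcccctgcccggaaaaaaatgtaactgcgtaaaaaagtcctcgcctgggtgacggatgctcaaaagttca
Foxd1: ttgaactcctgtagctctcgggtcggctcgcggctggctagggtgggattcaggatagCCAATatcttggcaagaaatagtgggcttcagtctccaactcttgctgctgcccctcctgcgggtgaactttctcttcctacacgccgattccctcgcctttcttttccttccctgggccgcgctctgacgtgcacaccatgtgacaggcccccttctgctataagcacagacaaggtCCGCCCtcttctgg
Foxf2: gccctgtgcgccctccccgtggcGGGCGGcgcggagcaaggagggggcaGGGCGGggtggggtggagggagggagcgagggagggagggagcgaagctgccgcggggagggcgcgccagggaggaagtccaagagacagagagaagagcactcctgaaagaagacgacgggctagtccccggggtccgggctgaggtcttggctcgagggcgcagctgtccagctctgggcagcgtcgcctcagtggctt
Foxo1: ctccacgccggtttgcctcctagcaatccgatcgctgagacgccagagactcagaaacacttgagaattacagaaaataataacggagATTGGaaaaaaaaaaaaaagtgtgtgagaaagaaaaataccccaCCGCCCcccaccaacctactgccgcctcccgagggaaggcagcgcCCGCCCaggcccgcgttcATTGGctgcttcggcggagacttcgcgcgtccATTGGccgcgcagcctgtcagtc

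The forkhead core was in none of these 4 windows. It occurred 1, 2 and 1 times in the windows of the 3 *Foxp1* starts, and in 12.03% of 32851 promoter windows of the same length. *Foxf2* had 2 GC boxes, *Foxc1* and *Foxd1* had 1 GC box and 1 CCAAT box each, and *Foxo1* had 2 GC boxes and 3 CCAAT boxes, while 32.7% of all windows held a GC box and 33.9% a CCAAT box. The share of G and C was 70.8% for *Foxc1*, 57.2% for *Foxd1*, 71.6% for *Foxf2* and 56% for *Foxo1*. It was 74%, 45.2% and 60.8% for the *Foxp1* starts, compared with a median of 52.4% over all windows. A match of letters describes the sequence and says nothing of whether a factor binds there.

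The comparison of sorted mural cells with fragments asks which of these factors have more transcript in the mural preparation than in the whole microvessel. Of the 5 mesenchymal genes, 4 were enriched (adjusted p under 0.05 in limma and a ratio of mean FPKM above 2), namely *Foxs1*, *Foxd1*, *Foxc2* and *Foxc1*. Over all genes tested, 6.43% were enriched. *Foxf2* passed the adjusted p with a smaller ratio, which makes 5 of 5 that were higher by the adjusted p alone, against 9.34% of all genes. Of the 4 endothelial and broad genes, none was called in either direction, with 10.1% of all genes called lower and 13.0% lower by the adjusted p alone. Few EC markers were called either. Of these 13, 0 were enriched and 2 were called lower, or 8 lower by the adjusted p alone, at a median ratio of 0.652. At an unadjusted p under 0.05 in limma, *Foxp2* was on the higher and *Foxo1* on the lower side. The median ratio was 5.53 for the mesenchymal genes and 0.941 for the endothelial and broad genes, beside 0.943 over all genes tested. On the log2(FPKM + 1) scale, on which fold changes of low genes are understated, the medians were 1.98, -0.11 and -0.12.

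**Figure D1:**
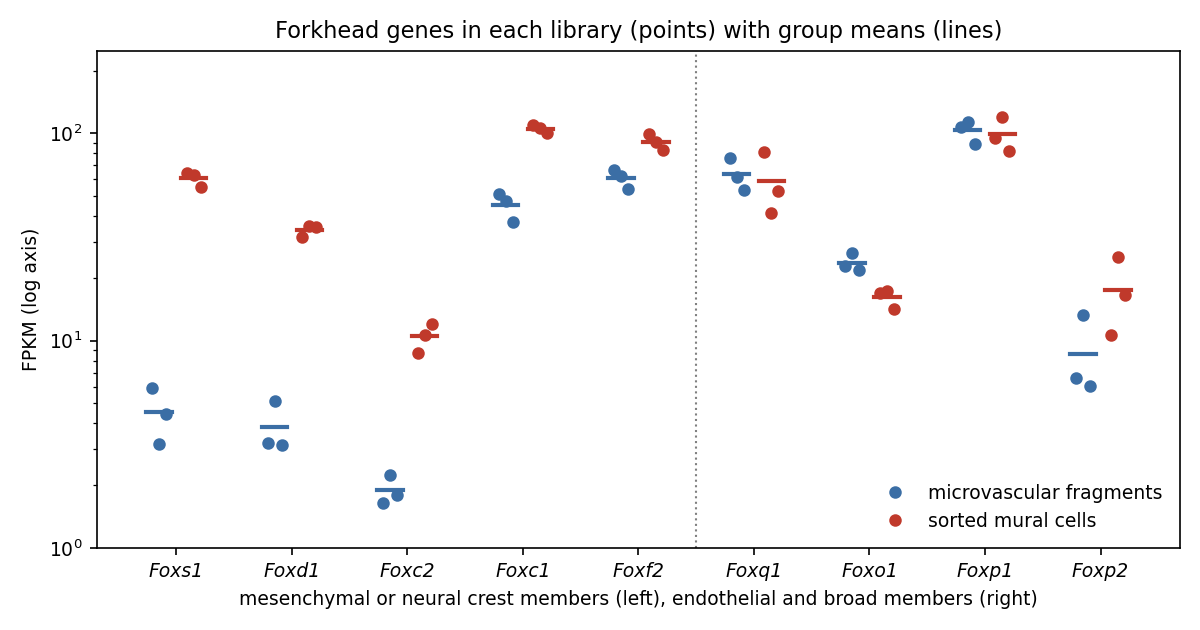
FPKM of the 9 forkhead genes (log axis) in each of the 3 fragment and 3 mural libraries (points), with group means (lines). In the mesenchymal genes on the left, all mural points lie above all fragment points, while *Foxq1*, *Foxp1* and *Foxp2* on the right overlap between the groups and *Foxo1* lies lower in mural cells.

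*Foxs1*, a single-exon forkhead gene known from neural crest derivatives and from pericytes, lies at chr2:152757634-152758944 on the minus strand (NCBIM37). Its FPKM was 5.88, 3.18 and 4.44 in the fragments and 64.1, 62.8 and 54.9 in the mural cells. The groups were far apart, and the mural libraries varied little among themselves. The mural mean of 60.6 ± 5.02 FPKM (SD, n = 3) was 13.5 times the fragment mean of 4.50 ± 1.35 FPKM (SD, n = 3). The log2 fold change was 3.51 (SE 0.21, limma adjusted p = 0.000109). This ratio ranked at position 25 of the 14801 genes tested. It was 11.7 without the second fragment library. The values rest on 30, 15 and 23 sequenced fragments in the microvascular libraries and on 126, 52 and 48 in the mural libraries. The smallest of these, 15, has an exact 95% Poisson interval of 8.4 to 24.7, which covers counting error only.

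*Foxd1*, a factor of stromal progenitors, is a single-exon gene at chr13:99124200-99126660 on the plus strand. Its FPKM was 3.19, 5.12 and 3.14 in the fragments and 31.4, 35.6 and 35.4 in the mural cells, with no overlap. Mural cells averaged 34.2 ± 2.36 FPKM (SD, n = 3) against 3.82 ± 1.13 FPKM (SD, n = 3), which gives a ratio of 8.95. The log2 fold change was 2.89 (SE 0.22, limma adjusted p = 0.000193), and the ratio stood at position 126 of all genes tested.

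*Foxc2*, a factor of mesenchyme and of lymphatic and vessel development, is a single-exon gene at chr8:123640071-123642792 on the plus strand. It was the lowest of the mesenchymal genes, at 1.65, 2.25 and 1.79 FPKM in the fragments and 8.72, 10.7 and 12.1 FPKM in the mural cells. The groups did not overlap. The ratio was 5.53 and the log2 fold change 1.98 (SE 0.24, limma adjusted p = 0.00142). Only 19 to 24 sequenced fragments per microvascular library and 20 to 39 per mural library stand behind these values. The annotation places *Foxc2* inside a long gene model of the same strand, *Gm20388*, which had at most 0.514 FPKM in any library.

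*Foxc1*, the close relative of *Foxc2* and a regulator of the meninges and of brain mural cells, is a single-exon gene at chr13:31898515-31902504 on the plus strand. Its FPKM was 51.1, 47.1 and 37.4 in the fragments and 109.9, 106 and 100.4 in the mural cells. The groups did not overlap, but the fragments also held a high level. The mural mean of 105 ± 4.72 FPKM (SD, n = 3) was 2.33 times that of the fragments, 45.2 ± 7.06 FPKM (SD, n = 3). The log2 fold change was 1.21 (SE 0.14, limma adjusted p = 0.0011). With 298 to 739 sequenced fragments in the mural libraries and 659 to 884 in the others, counting error was small.

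*Foxf2*, known for its role in brain pericytes, has 2 exons and lies at chr13:31717685-31723272 on the plus strand. It reached 66.6, 62.0 and 53.7 FPKM in the fragments and 99.6, 90.7 and 83.3 FPKM in the mural cells. Every mural library was above every fragment library, by a smaller margin than in the genes above. The ratio was 1.50 and the log2 fold change 0.58 (SE 0.13, limma adjusted p = 0.0175). This result was less firm, since the adjusted p was 0.0652 without the second fragment library, 0.0769 without the third and 0.0523 without the intensity trend.

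The mural libraries of these 5 genes lay above all fragment libraries in 5 of 5, which was so for 16.5% of all genes tested. Their summed FPKM was 101 to 129 in the fragments and 286 to 314 in the mural cells. Other values moved with this result. Among 8 fibroblast and meningeal markers, 7 passed the filter and 3 were enriched, beside 6.43% of all genes tested. The list of markers summed to 42.1 to 47.0 FPKM in the fragments and 184 to 205 FPKM in the mural cells. *Col1a1*, a fibrillar collagen, had the highest ratio of them, 12.9, and *Dcn* followed at 7.33. The ratio was 6.17 for *Lum*, 2.19 for *Slc6a13*, whose groups overlapped, and 1.62 for *Fbln1*. By the limma adjusted p alone, 4 of the 7 were higher, beside 9.34% of all genes tested. The meningeal marker *Aldh1a2* had a ratio of 1.16 with a limma adjusted p of 0.808, *Crabp2* was listed at 0 in 2 of 3 mural libraries and *Dpt*, named after its values were seen, was listed at 0 in 5 of 6 libraries. The part of such cells in the forkhead result was not tested. Smooth muscle markers summed to 662 FPKM in the first mural library and to 1355 and 1549 FPKM in the others. The sum of the 5 forkhead genes was 314, 305 and 286 FPKM in the same order. *Foxc1*, *Foxf2* and *Foxs1* were highest in the first mural library. *Foxc2* (8.72, 10.7 and 12.1 FPKM) and *Foxd1* (31.4, 35.6 and 35.4 FPKM) were lowest there. The part of smooth muscle cells in the forkhead result was not tested either.

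The endothelial and broad genes gave a different picture. *Foxq1*, a forkhead gene expressed by brain EC, is a single-exon gene at chr13:31650039-31652839 on the plus strand. It had 76.3, 61.4 and 53.0 FPKM in the fragments and 81.5, 41.3 and 52.7 FPKM in the mural cells. The groups overlapped, and the first mural library was the highest of all 6. The log2 fold change was -0.16 (SE 0.26, limma adjusted p = 0.706). An antisense gene, *A530084C06Rik*, overlaps 1164 bases of it at 0.846 to 4.31 FPKM, and while the library kit keeps the strand, it is not stated whether the counting used it.

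*Foxo1*, the FOXO factor best known from EC, lies at chr3:52072259-52154031 on the plus strand. Its FPKM was 22.9, 26.5 and 21.9 in the fragments and 17.1, 17.3 and 14.2 in the mural cells. All mural values were below all fragment values, as for 24.5% of genes tested, but the difference missed the threshold. The ratio was 0.683 and the log2 fold change -0.52 (SE 0.16, limma adjusted p = 0.0534). The adjusted p was between 0.0488 and 0.212 over the alternatives. The antisense transcript *RP24-337A16.1* overlaps 1001 bases of *Foxo1* and was at 20.2 to 25.9 FPKM in fragments and 9.35 to 16.5 FPKM in mural cells (limma adjusted p = 0.0449). If the counting did not use the strand, reads from the pair cannot be told apart.

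*Foxp1*, a broadly expressed repressor, lies at chr6:98875332-99216526 on the minus strand with 16 annotated transcripts. At 108, 113 and 88.9 FPKM in the fragments and 95.3, 120.1 and 82.5 FPKM in the mural cells, it was among the most abundant of the 9 in both preparations. The groups overlapped and the log2 fold change was -0.07 (SE 0.17, limma adjusted p = 0.818). *Foxp2*, a relative best known from neurons, lies at chr6:14851349-15391977 on the plus strand with 19 transcripts. It had 6.58, 13.3 and 6.05 FPKM in the fragments and 10.6, 25.3 and 16.6 FPKM in the mural cells. The groups overlapped by 1 library on each side, and with a ratio of 2.02 the log2 fold change was 0.94 (SE 0.38, limma adjusted p = 0.129). When replicate numbers entered the fit as a block, its limma adjusted p was 0.043 and *Foxp2* would be called enriched.

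Of 44 forkhead genes looked for, 43 were in the files and 24 passed the filter, 15 of them outside the 9 described. The genes below the filter included 6 listed at 0 in every library. In the family 5 genes were enriched and 0 were lower by limma, and 6 passed the adjusted p as higher and 0 as lower. Over all genes tested, 6.43% were enriched and 10.1% lower, or 9.34% and 13.0% by the adjusted p alone. The 9 genes described hold 4 of the 5 enriched and 5 of the 6 higher by the adjusted p. Among the 15 others only *Foxp4* was called, which is near the share over all genes tested. The fifth enriched gene was *Foxp4*, a paralogue of *Foxp1* and *Foxp2*, at 5.64, 5.56 and 3.38 FPKM in the fragments and 17.5, 24.3 and 9.85 FPKM in the mural cells. Its ratio was 3.54 (log2 fold change 1.58, SE 0.35, limma adjusted p = 0.0174). Without the third fragment library the adjusted p was 0.0704 and *Foxp4* was no longer called. *Foxj1*, a factor of motile cilia in ependymal cells, had the lowest ratio, 0.417, without passing (limma adjusted p = 0.223). The mural values of *Foxl2*, *Foxj3* and *Foxo1* lay below the fragment values without overlap, as did 24.5% of all genes tested, and these 3 were the genes with a lower level at an unadjusted p under 0.05 in limma.

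**Figure D2:**
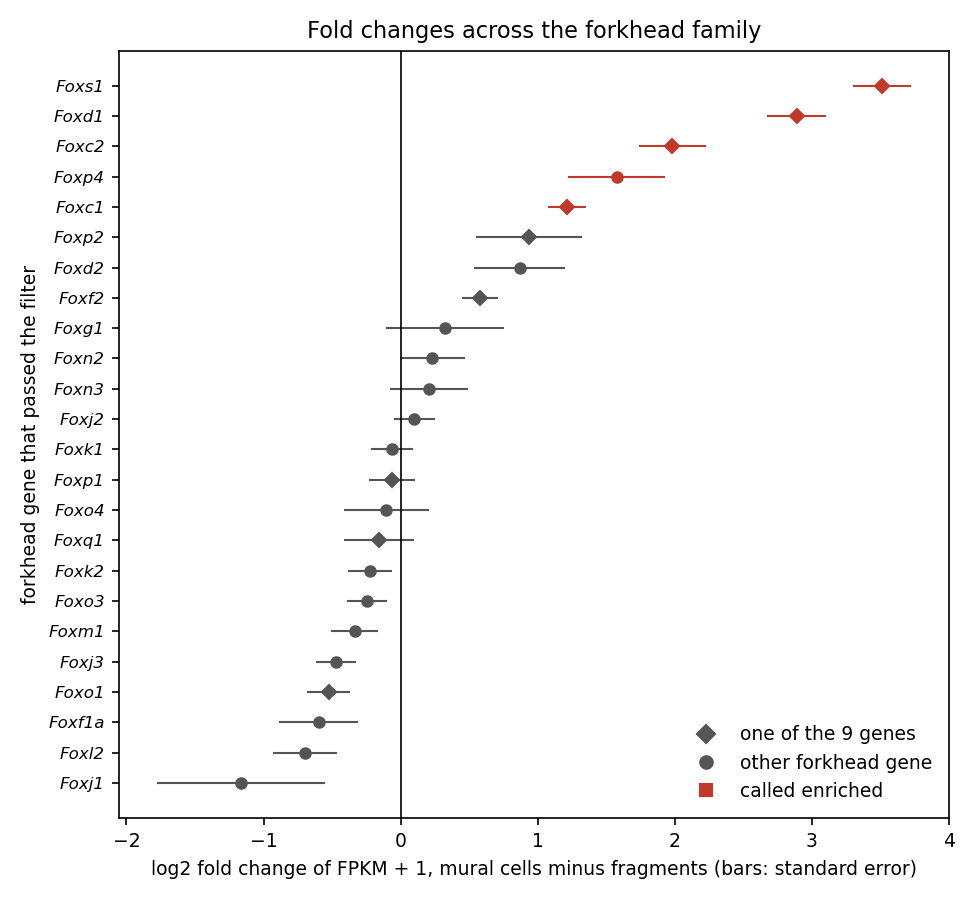
Log2 fold change of FPKM + 1, mural cells minus fragments, with its standard error for the 24 forkhead genes that passed the filter; diamonds are the 9 genes and red marks genes called enriched. *Foxs1* is at the top with 3.51 and *Foxj1* at the bottom with -1.17.

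The order of levels changed between the preparations. In mural cells *Foxc1* had the highest mean FPKM of the 24 genes at 105, followed by *Foxp1* at 99.3, *Foxn3* at 92.5 and *Foxf2* at 91.2. Each overlapped with its neighbour, so the order of neighbours is not resolved. The lowest mural value of *Foxc1*, 100.4 FPKM, was just above the highest of *Foxf2*, 99.6 FPKM. *Foxf2* did not overlap with *Foxs1* at 60.6, which overlapped with *Foxq1* at 58.5. *Foxd1* was at position 7, *Foxp2* at 16, *Foxo1* at 18 and *Foxc2* at 21. In the fragments *Foxp1* was first at 103 and stood clear of *Foxn3* at 75.9. *Foxq1* and *Foxf2* overlapped at 63.6 and 60.8, and *Foxc1* was at position 5 with 45.2. *Foxs1*, *Foxd1* and *Foxc2* were at positions 20, 21 and 22. The 5 mesenchymal genes made up 16.8 to 18.9% of the summed forkhead FPKM in the fragments and 35.8 to 37.9% in the mural cells, while the 4 others made up 28.4 to 32.3% and 22.0 to 24.8%.

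*Foxq1*, *Foxf2* and *Foxc1* are neighbours on chromosome 13. The starts of *Foxq1* and *Foxf2* are 67.6 kb apart and those of *Foxf2* and *Foxc1* 180.8 kb apart. Within this cluster, the ratio of *Foxc1* to *Foxf2* was 0.767, 0.760 and 0.696 in the fragments and 1.10, 1.17 and 1.21 in the mural cells. *Foxf2* over *Foxq1* was 0.873 to 1.02 in the fragments and 1.22, 2.19 and 1.58 in the mural cells, and *Foxc1* over *Foxq1* was 0.670 to 0.767 and 1.35, 2.56 and 1.91. The groups did not overlap in any of these 3 comparisons. The 3 ratios are built from the same 3 genes and are not independent, and the share of other gene pairs without overlap was not determined. For each, the two-sided exact permutation p was 0.1 (adjusted p = 0.1). This is the smallest that 3 libraries against 3 allow, so the test could not have passed and the ratios are description only. The genes beside the cluster, *Exoc2* with a ratio of 0.822 and *Gmds* with 1.33, were not called. On chromosome 8 *Foxc2* starts 31.8 kb from *Foxf1a*, which had a ratio of 0.662 and was not called (limma adjusted p = 0.19).

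**Figure D3:**
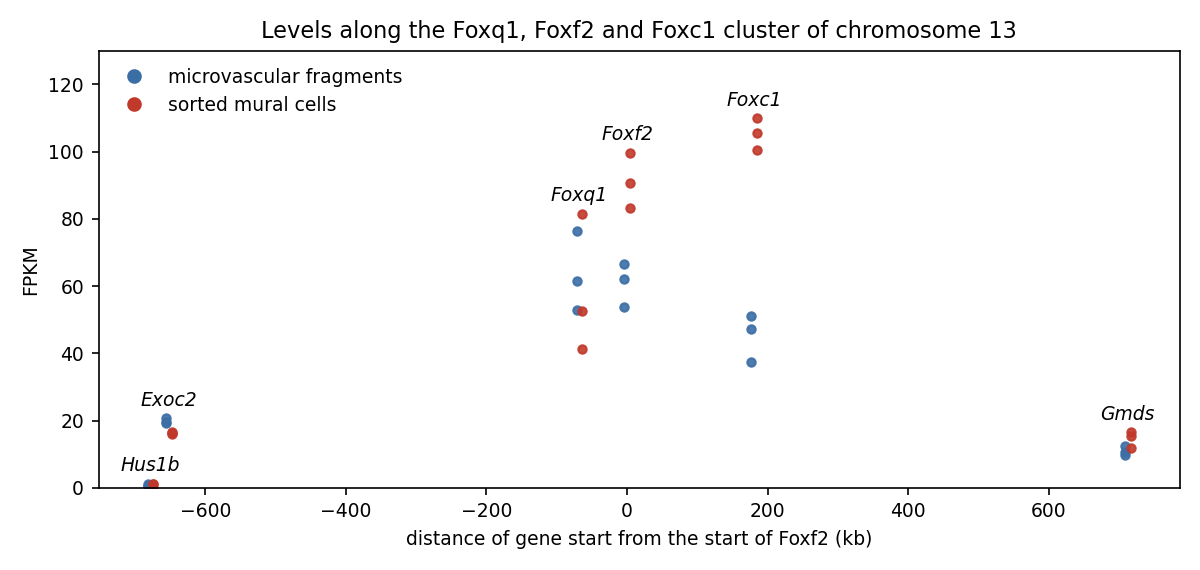
FPKM of *Foxq1*, *Foxf2*, *Foxc1* and the genes beside them in each library, against the distance of each gene's start from that of *Foxf2* in kb. Mural and fragment points overlap for *Foxq1*, separate for *Foxf2* and lie furthest apart for *Foxc1*.

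The genes with the most similar pattern were found as those with the smallest root mean square distance of log2(FPKM + 1), centred on each gene, over the 6 libraries. For *Foxs1* they were *Kcnj8*, an ATP-sensitive potassium channel subunit of pericytes, *Cd248*, a surface protein of pericytes and stroma, and *Pdgfrb*, at distances of 0.22, 0.24 and 0.26. *Foxd1* was nearest to *Zic1*, *Dact1* and *Dkk3* at 0.10, 0.13 and 0.15, and *Foxc2* to *Mfge8*, *Slc2a10* and *Prkg1*. *Foxc1* was nearest to *Pdzd2*, *Trip6* and *Hunk*, and *Foxf2* to *Thbd*, *Nub1* and *Prkcsh*. The nearest were *Gtf3c2*, *Gm10075* and *Mphosph9* for *Foxq1* and *Slc16a1*, *A830080D01Rik* and *Pcdha11* for *Foxo1*. *Foxp1* was nearest to *Sos2*, *Pnpla2* and *Rpl6*, and *Foxp2* to *Zfp72*, *Myl4* and *Cth*. All points share the same 6 libraries, so these distances only describe likeness.

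Other factors of mesenchymal and neural crest lineages were compared in the same way. Of 16 that passed the filter, 13 were enriched and 1 was lower, beside 6.43% and 10.1% of all genes tested, with a median ratio of 7.84. *Myocd*, a coactivator of smooth muscle genes, and *Tbx15* had the highest ratios, 12.4 and 12.3, while *Msx1* was lower at 0.297 and *Meox1* had 0.893. Of 16 endothelial factors, 0 were enriched and 6 were lower by limma, with a median ratio of 0.542. By the adjusted p alone, with 9.34% of all genes tested higher and 13.0% lower, 2 of these factors were higher (*Epas1* and *Ets1*) and 10 lower. The lowest were *Lyl1* at 0.141 and *Gata2* at 0.305, and the highest *Epas1* at 1.41 and *Ets1* at 1.33. *Foxo1*, at 0.683, was above the median of the endothelial factors. *Foxs1* and *Foxd1* were above the median of the mesenchymal factors, and *Foxc2*, *Foxc1* and *Foxf2* were below it.

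**Figure D4:**
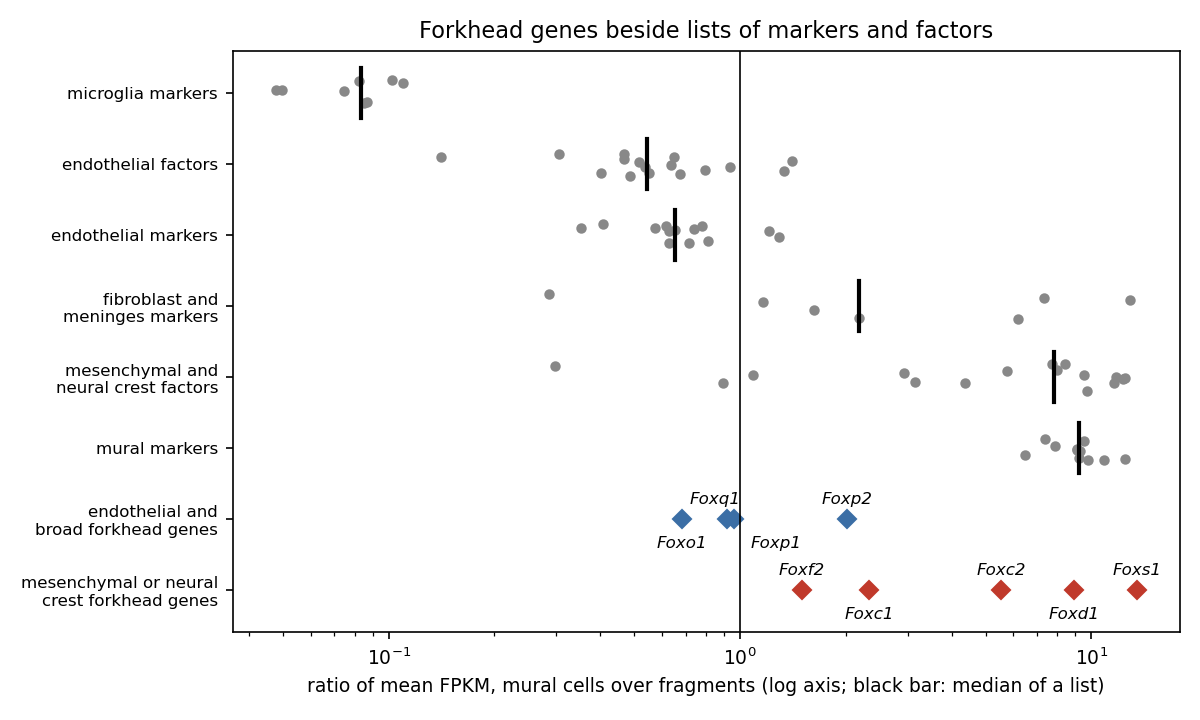
Ratio of mean FPKM, mural cells over fragments (log axis), for the 9 forkhead genes (diamonds) and for the genes of 6 lists that passed the filter (points, with a black bar at each median). *Foxs1* at 13.5 lies above the mural markers, which range from 6.47 to 12.5, and *Foxd1* at 8.95 lies among them. The place of *Foxs1* rests on few sequenced fragments, and its ratio was 11.7 without the second fragment library. *Foxc2* at 5.53, *Foxc1* at 2.33 and *Foxf2* at 1.50 lie below all mural markers. The endothelial and broad forkhead genes lie between 0.683 and 2.02, a range that also holds *Foxf2*.

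Genes around these factors were described from lists. Of 16 genes upstream of FOXO, 1 was enriched and 2 were lower, with a median ratio of 1.15. These counts are near the shares over all genes tested, 6.43% enriched and 10.1% lower. *Irs1*, an adaptor of the insulin receptor, was enriched at 4.44, and the kinase genes *Sgk1* and *Pik3cb* were lower at 0.210 and 0.262. Of 23 genes known as FOXO targets, 3 were enriched and 6 were lower, beside the same 6.43% and 10.1% of all genes, with a median ratio of 0.708. *Spry2*, an inhibitor of receptor tyrosine kinase signalling, had 2.83 and *Angpt2*, a ligand of the TIE2 receptor, 2.34, whereas *Klf4* and *Klf2* were the lowest at 0.224 and 0.259. *Klf2* and *Klf4* are also known as EC and stress-responsive genes. Of 4 vascular targets of FOXC, *Hey2*, a NOTCH effector, was enriched at 7.22, and *Cxcr4*, *Dll4* and *Itgb3* had ratios of 1.19, 0.694 and 0.459 without a call. None of 8 FOXP co-repressor genes was called by limma, where 2 had an unadjusted p under 0.05, with a median ratio of 1.01 between *Chd4* at 0.775 and *Ctbp1* at 1.27.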

How the data were processed

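RNA-seq was performed on 3 libraries of FACS sorted mural cells and 3 of microvascular fragments from P6 mouse brain. The authors deposited FPKM values per Ensembl gene, made with TopHat2 2.0.4 on NCBIM37, Picard 1.92 for removal of duplicates and Cufflinks 2.2.1. Strand use in counting is not given in the sources used here. Of 33460 genes, 33116 had a symbol in the NCBIM37 annotation. *Foxf1* was matched as *Foxf1a*.

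For tests, log2(FPKM + 1) of the 14801 genes with FPKM of at least 1 in at least 3 libraries entered a linear model in limma (version 3.58.1, under R 4.3.3) whose variance prior followed the mean level, and p-values were adjusted by Benjamini-Hochberg over all of them. FPKM are not counts, so no count test was run. Sequenced fragments were recovered for genes with 1 transcript from the steps of low FPKM values, of which 98.4 to 98.7% were whole within 0.1 fragments. Above 100 fragments they were accepted within 0.1%, which amounts to rounding and was set after a *Foxc1* value had fallen outside 0.1. The lower depth of the mural libraries makes their values less precise. Other steps used Python 3.11.15, pandas 2.3.3 and NumPy 2.4.6, and the fit was tested on simulated data, where the share of false calls was above the nominal rate, so adjusted p-values near the threshold are less firm than their size says.

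The genes and lists were chosen with earlier results of these data known. Named were the 9 genes, tested family members, cluster neighbours, the 3 nearest genes per gene and, per list, at most 4 genes with the highest and lowest ratios. Fibroblast and meningeal markers were the exception, with *Lum*, *Slc6a13*, *Fbln1* and *Dpt* named after their values were seen. Whether same-numbered libraries came from 1 brain is not stated, so p-values measure the spread between these libraries. Alternatives changed the pseudocount, filter, scaling, trend, threshold and replicates.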

Additional observations from a re-analysis of the deposited data

How the results depend on the processing

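Of the 9 genes, 4 to 5 were enriched and 0 lower under all 17 alternatives, and 4 to 6 of the family were enriched. The median log2 fold change of the mesenchymal genes moved from 1.98 to 2.41 with a pseudocount of 0.1 and to 2.30 with quantile normalization. Leaving out 1 library at a time gave 1.88 to 2.10, and -0.23 to -0.03 for the endothelial and broad genes. Over these fits *Foxq1* lay between -0.4219 and 0.0598 and *Foxp1* between -0.2098 and 0.0583. The sign turned for *Foxq1* without the second mural library and for *Foxp1* without the second fragment library (0.0050) or the third mural library, none of them called. With the replicate block 5 of the 9 genes were enriched, since *Foxp2* then had an adjusted p of 0.043 at a log2 fold change of 0.94, and no other of the 9 changed its call. Same-numbered libraries deviated together only weakly (r = 0.0818, 0.0203 and 0.0454), although each correlated best with its own number, so the pairing is not shown. Over all genes, 1493 were called lower and 952 were enriched, the latter against 667 to 1195. The lower calls fell to 607 to 702 without 1 fragment library, and to 948 with a filter at FPKM 5. At an adjusted p under 0.01 they were 845, where a stricter threshold can only reduce them. They rose to 1733 without the first mural library and to 1737 without a filter. The cause of the other changes was not tested. Of the alternatives, testing protein-coding genes only and leaving out genes at 0 in a whole group were chosen after seeing the data. Depth limits the genes with few sequenced fragments, among them *Foxs1* and *Foxc2*.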
